A study of Homo sapiens with 12 samples.

Results

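Transcript levels of genes that make, cut and bind hyaluronan were followed in MDA-MB-231-ERβ cells, a triple negative breast cancer (TNBC) line engineered to express full length ERβ upon addition of doxycycline (dox). The gene list was drawn up by name, with earlier results of these data known, and no value served as a threshold. It held 8 genes, of which 7 were among the 12451 entries of the count table, namely HAS2, HAS3, HYAL2, HYAL3, CD44, HMMR and UGDH. The listed HYAL1 is not analysed here. Because the list was drawn up with results in view, the values below describe these genes and lend no support to any statement about the pathway. The question that the design addressed was how E2 and TNFα, alone and together, altered gene expression in cells that express ERβ.

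The 12 libraries formed 4 groups of 3, and dox was given to all of them, including vehicle. The vehicle group received ethanol for 5 days, and the E2 group received 1 nM E2 (estradiol) for 5 days. The TNFα group received vehicle for 5 days with 20 ng/ml TNFα for the final 3 h, and the E2+ TNFα group received 1 nM E2 for 5 days with 20 ng/ml TNFα for the final 3 h. Dox is missing from the treatment label of the E2+ TNFα group, for which it was taken from the treatment protocol. Cells were grown in charcoal-stripped serum on dishes plated in triplicate, and a group without ERβ induction was not part of these libraries. ERβ here is a transgene in an established line, induced by dox. ERβ transcripts (ESR2) are given as RPKM (reads per kilobase of exon, scaled to library size with TMM factors). Their group mean was 59.1 RPKM in vehicle and 31.9 in TNFα, with 38.3 in E2 and 56.1 in E2+ TNFα. ESR2 thus differed between groups that all received dox, at a log2 fold change of 0.81 (SE 0.12, adjusted p = 5.73e-05 by edgeR) in E2+ TNFα relative to TNFα and 0.55 (SE 0.12, adjusted p = 0.0249 by edgeR) relative to E2, and its part in the results below was not tested.

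Hyaluronan is a long unsulfated sugar polymer of the extracellular matrix, spun out through the plasma membrane by hyaluronan synthases (HAS) that join UDP-glucuronic acid and UDP-N-acetylglucosamine. Hyaluronidases (HYAL) and related proteins cut it into shorter chains, which are taken up and degraded in lysosomes. Cells sense the polymer through receptors, mainly CD44 and RHAMM, and a hyaluronan-rich coat with high CD44 is a known feature of invasive mesenchymal breast cancer lines such as MDA-MB-231.

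Reads assigned to genes came to 7.65 to 15.8 M per library (M, mega) for E2, 16.8 to 36.7 M for E2+ TNFα, 19.5 to 30.5 M for TNFα and 35.8 to 39.9 M for vehicle. Levels are given as CPM (library-scaled counts, with TMM factors), and levels of different genes were compared only as RPKM. Vehicle libraries stood apart from the 9 others on the first principal component, which held 68.7% of the variance. The deviation of each gene from its mean over all libraries fell with exon GC content in vehicle libraries (Spearman's rho across genes of -0.73 to -0.63) and rose with it in TNFα libraries (0.39 to 0.60) and E2 libraries (0.29 to 0.67), with -0.10 to 0.74 in E2+ TNFα libraries. Library batches are not given in the sources used here, so that batch and the vehicle condition cannot be told apart, and comparisons with vehicle are therefore shown also after removal of each library's trends with GC content and gene length. The mesenchymal marker VIM was at a group mean of 360 to 483 RPKM, whereas the epithelial marker CDH1 was at 0.58 RPKM in vehicle and 0.35 in TNFα but at 7.59 with E2 and 7.52 with E2+ TNFα. Of the other tested markers, epithelial EPCAM was at 5.78 RPKM in vehicle and 5.86 with E2, ERBB2 at 18.0 and 17.1, and CAV1, high in this line, at 46.4 and 103. As these are bulk samples, fewer cells with a transcript and less of it per cell cannot be told apart, and p-values measure the spread between dishes of one line.

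Of the 7 genes, 4 (HYAL2, HYAL3, CD44 and UGDH) reached 1 RPKM in all 12 libraries. The others entered the test only through the groups in which they were high, that is HAS2 through vehicle and TNFα, HAS3 through E2 and E2+ TNFα, and HMMR through vehicle alone. These 3 genes therefore had to differ between groups, and counts that include them are given as a description. In vehicle, the mean level was 102 RPKM for CD44, 11.4 for UGDH, 9.34 for HYAL2, 7.24 for HAS2, 2.31 for HYAL3, 1.55 for HMMR and 0.585 for HAS3. In this order only UGDH and HYAL2 overlapped, in 10.12 to 12.1 against 8.61 to 10.13 RPKM, and no other neighbours did.

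HAS2 encodes the synthase that makes long hyaluronan chains and is the main synthase of many mesenchymal cells. It lies on chromosome 8. Its level was 28.2, 36.7 and 34.8 CPM in the vehicle libraries, which corresponds to 1165, 1563 and 1591 counts. TNFα libraries held 7.87, 7.77 and 8.06 CPM. In E2 libraries 0.137, 0.478 and 1.18 CPM were left, that is 2, 3 and 13 counts. In E2+ TNFα libraries 0.556, 0.210 and 0.479 CPM were found, or 9, 6 and 16 counts. All 6 libraries with E2 thus lay below all 3 TNFα libraries, which in turn lay below all 3 vehicle libraries, whereas E2 and E2+ TNFα overlapped.

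Relative to TNFα, HAS2 was 19.5-fold lower in E2+ TNFα (log2 fold change -4.29, SE 0.38, adjusted p = 4.32e-07 by the quasi-likelihood test of edgeR with Benjamini-Hochberg adjustment over all genes tested). Relative to vehicle, it was 57.5-fold lower in E2, at a log2 fold change of -5.84 (SE 0.41). With the few counts of the E2 libraries the size of this difference was not firm, since it became -7.10 without E2 replicate 3 and -5.25 without E2 replicate 1, and -3.68 once the trends with GC content and length had been removed. HAS2 exons hold 37.5% GC, and a group of 1131 genes with like GC content had a median that was also negative in E2, at -2.20. TNFα alone relative to vehicle gave -2.07 for HAS2, next to -2.19 for the median of those genes, and with the trends removed the value was 0.16 (adjusted p = 0.541 by edgeR). With the housekeeping factor removed it was -2.95 and passed (adjusted p = 0.073 by edgeR), so that the direction for TNFα alone depended on the correction. The antisense gene HAS2-AS1 overlaps the locus in GENCODE 44, and the strand setting of the counting is not given, so that reads of the pair cannot be told apart.

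HAS3 encodes a synthase that makes shorter hyaluronan chains and is typical of epithelia. Its table locus is chr16:69105564-69118719 (hg38, + strand), with 5044 bases of exon. The vehicle libraries held 2.68, 2.82 and 3.35 CPM, and the TNFα libraries 1.35, 1.76 and 1.82 CPM. E2 libraries reached 12.1, 17.1 and 11.8 CPM, and E2+ TNFα libraries 9.95, 8.40 and 10.1 CPM. The 4 groups did not overlap, in the order E2, E2+ TNFα, vehicle and TNFα.

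HAS3 rose by a log2 fold change of 2.53 (SE 0.23, adjusted p = 5.99e-07 by edgeR) in E2+ TNFα relative to TNFα, a 5.79-fold difference. In E2 relative to vehicle it rose by 2.20 (SE 0.22), and by 1.80 with the trends removed. TNFα alone lowered it by a log2 fold change of -0.85 (SE 0.23, adjusted p = 0.00324 by edgeR), or -1.25 with the trends removed. In E2+ TNFα relative to E2 all 3 libraries were lower, but the difference of -0.52 (SE 0.21) did not pass (adjusted p = 0.197 by edgeR). The table assigns 365 of the HAS3 exon bases also to CHTF8, which lies on the opposite strand. DERPC also overlaps the locus on that strand in GENCODE 44.

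**Figure D1:**
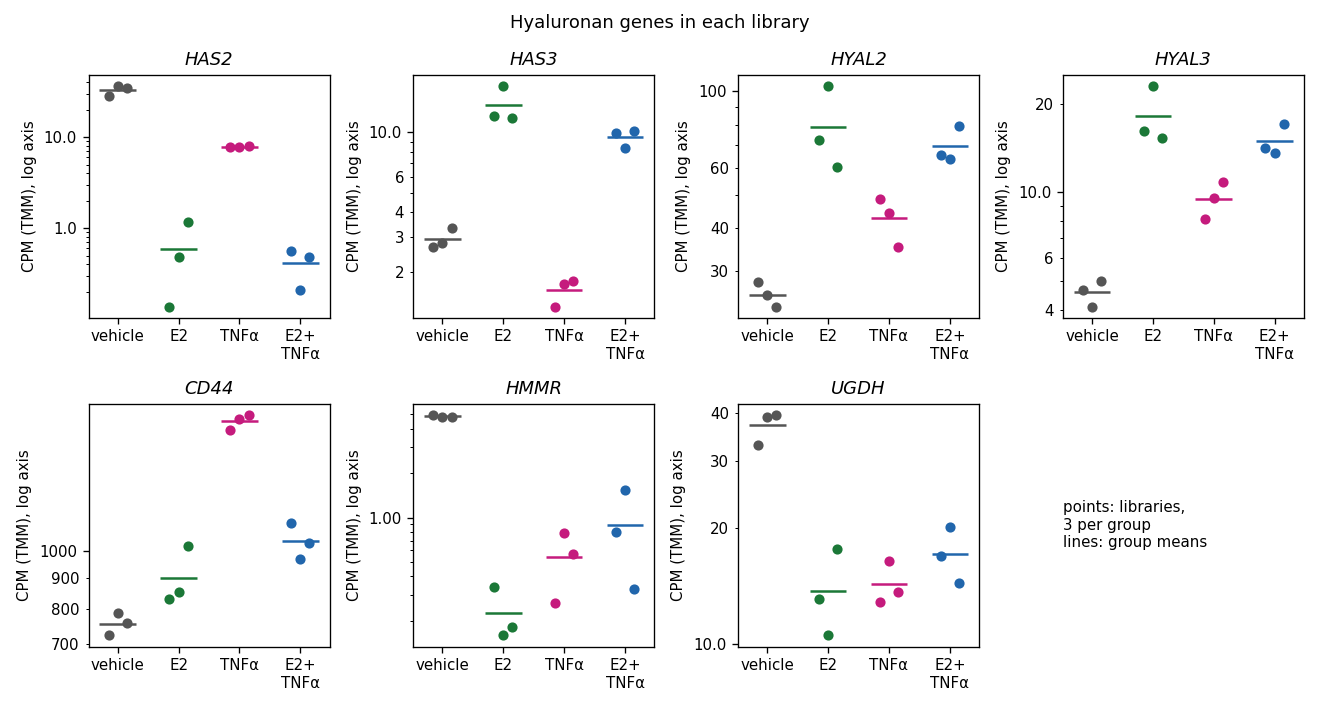
Level of each hyaluronan gene in every library (points, 3 per group) with the group mean (line), in CPM after TMM scaling on log axes that differ between panels. HAS2 was at 28.2 to 36.7 CPM in vehicle and at most 1.18 CPM in every library with E2, while HAS3 was lower in vehicle and TNFα than in both groups with E2.

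Set per exon length, the balance of the synthases differed between the groups. HAS3 made up 6.53 to 8.05% of the summed HAS2 and HAS3 RPKM in vehicle and 13.5 to 17.1% in TNFα. With E2 this share was 90.2 to 98.8%, and with E2+ TNFα it was 94.2 to 97.3%. The sum itself was 6.67 to 8.56 RPKM in vehicle, 2.43 to 3.49 in E2, 1.98 to 2.12 in TNFα and 1.71 to 2.11 in E2+ TNFα. The order of vehicle and TNFα in this share rests on HAS2 values that moved with base composition, since with the trends removed TNFα relative to vehicle gave 0.16 for HAS2 and -1.25 for HAS3, and the share of HAS3 would then be lower in TNFα. TNFα and E2+ TNFα libraries had overlapping sums made of different synthase transcripts. HAS1, the remaining synthase, is not analysed here.

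HYAL2 encodes a hyaluronidase anchored at the cell surface that cuts long chains into intermediate ones, and HYAL3 a related protein of less settled activity. Both lie in a hyaluronidase cluster on chromosome 3, HYAL2 at chr3:50317790-50322850 and HYAL3 at chr3:50292828-50299468 (hg38, - strand). HYAL2 was at 27.9, 25.5 and 23.7 CPM in vehicle and 48.6, 44.3 and 35.4 CPM in TNFα. It was at 72.1, 103.8 and 60.3 CPM in E2 and 65.2, 63.7 and 79.6 CPM in E2+ TNFα. Vehicle libraries were lowest, TNFα libraries came next, and the E2 and E2+ TNFα libraries were highest and overlapped.

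HYAL3 followed the same order of groups at lower levels. It was at 4.64, 4.09 and 5.01 CPM in vehicle, 8.10, 9.53 and 10.8 CPM in TNFα, 16.1, 23.0 and 15.3 CPM in E2 and 14.2, 13.6 and 17.0 CPM in E2+ TNFα. Of its exon bases, 251 are shared in the table with NAA80 on the same strand, so that some reads may belong to either gene. In GENCODE 44 IFRD2 also overlaps the HYAL3 locus and TUSC2 the HYAL2 locus, each on the same strand.

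Relative to TNFα, E2+ TNFα raised HYAL2 by a log2 fold change of 0.70 (SE 0.18, adjusted p = 0.0069 by edgeR) and HYAL3 by 0.66 (SE 0.20, adjusted p = 0.016 by edgeR). E2 relative to vehicle gave 1.61 for HYAL2 and 1.97 for HYAL3, which became 0.67 and 1.01 with the trends removed. With the housekeeping factor removed HYAL2 gave 0.60 and did not pass (adjusted p = 0.235 by edgeR). HYAL3 then gave 1.04 and passed (adjusted p = 0.079 by edgeR). The exons of HYAL2 and HYAL3 hold 62.5 and 60.9% GC, and genes with like GC content had medians of 0.83 and 0.67 in the same comparison. For TNFα relative to vehicle, the values of 0.74 for HYAL2 and 1.05 for HYAL3 became -0.19 and 0.18 with the trends removed, and neither then passed the test. HYAL2 thus changed sign in that comparison, as it also did with a housekeeping factor removed (-0.13).

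Promoter windows of HAS3, HYAL2 and HYAL3 are shown because these genes rose together when E2 was added to TNFα. Windows of the RefSeq promoter table (GRCh38.p14) were cut where exons of the count table begin. RefSeq promoter entries existed for 6 of the 7 genes. Capitals mark matches to GGTCA, the core of an estrogen response element, on either strand. The windows read 5′ to 3′ on the strand of the gene and cover chr16:69107290-69107539 (+), chr3:50322851-50322995 (-) and chr3:50299469-50299655 (-). The HAS3 window ends at the RefSeq start of the gene, which lies inside the locus of the count table, so that it is upstream of that start but not of all HAS3 exons that were counted.
HAS3: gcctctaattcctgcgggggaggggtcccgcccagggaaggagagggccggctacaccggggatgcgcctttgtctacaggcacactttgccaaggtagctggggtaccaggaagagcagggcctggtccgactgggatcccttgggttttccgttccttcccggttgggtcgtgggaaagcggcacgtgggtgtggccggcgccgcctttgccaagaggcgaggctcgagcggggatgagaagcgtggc
HYAL2: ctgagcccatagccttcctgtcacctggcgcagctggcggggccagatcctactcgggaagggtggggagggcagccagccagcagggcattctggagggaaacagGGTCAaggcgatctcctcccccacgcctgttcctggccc
HYAL3: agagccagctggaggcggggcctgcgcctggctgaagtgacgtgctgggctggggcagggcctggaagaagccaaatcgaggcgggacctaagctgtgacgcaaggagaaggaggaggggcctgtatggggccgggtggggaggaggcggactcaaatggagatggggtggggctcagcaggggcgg

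HYAL2 had 1 match to GGTCA in 145 bases, which 20.0% of 35116 RefSeq promoters hold in a window of that length. HAS3 had 0 matches in 250 bases and HYAL3 had 0 in 187 bases, where 32.6 and 25.3% of promoters hold one. Such short matches are common and describe letters only.

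CD44 encodes the main hyaluronan receptor, a transmembrane protein that is spliced into many isoforms and marks mesenchymal and stem-like breast cancer cells. It lies at chr11:35138870-35232402 (hg38, + strand) and was the most abundant transcript of the list in every group. CD44 was at 722, 787 and 756 CPM in vehicle and 829, 852 and 1019 CPM in E2. TNFα libraries had 1587, 1660 and 1685 CPM, and E2+ TNFα libraries 1113, 969 and 1028 CPM. All TNFα libraries thus exceeded all others, and E2 and E2+ TNFα overlapped above vehicle.

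CD44 rose by a log2 fold change of 1.12 (SE 0.11, adjusted p = 4.44e-07 by edgeR) in TNFα relative to vehicle, and by 2.27 with the trends removed. It fell by 0.66 on the log2 scale (SE 0.11, adjusted p = 2.63e-04 by edgeR) in E2+ TNFα relative to TNFα, a 1.59-fold difference. Relative to E2, E2+ TNFα gave 0.20 (SE 0.11, adjusted p = 0.334 by edgeR), which did not pass, and on leaving out 1 library it was 0.15 to 0.30 and passed only without E2 replicate 3 (0.30, adjusted p = 0.0939 by edgeR). The difference between the TNFα effect with and without E2 was itself tested by the interaction term, at -0.92 (SE 0.16, adjusted p = 1.15e-04 by edgeR) and -2.30 with the trends removed. E2 alone relative to vehicle gave 0.25 (adjusted p = 0.0482 by edgeR). This call was lost without E2 replicate 3 (0.11), vehicle replicate 1 (0.19) or vehicle replicate 3 (0.22). It was also lost with the housekeeping factor removed (0.24, adjusted p = 0.536 by edgeR). The value turned to -0.10 with scaling by library size only, whereas removal of the trends gave 1.55. CD44-AS1 and CD44-DT overlap the locus on the opposite strand in GENCODE 44, and an unnamed noncoding gene on the same strand. The counts do not resolve CD44 isoforms.

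HMMR encodes RHAMM, a hyaluronan-binding protein that also acts at the mitotic spindle and is expressed mainly by dividing cells. It lies at chr5:163460511-163491945 (hg38, + strand), and HMMR-AS1 overlaps the locus on the opposite strand in GENCODE 44. Vehicle libraries held 4.98, 4.79 and 4.84 CPM, or 204 to 221 counts. All others were low, with 0.342, 0.159 and 0.181 CPM in E2 (5, 1 and 2 counts) and 0.263, 0.783 and 0.572 CPM in TNFα (8, 24 and 11 counts). E2+ TNFα libraries had 0.804, 1.54 and 0.330 CPM (13, 44 and 11 counts). The 3 groups with a treatment could not be ordered at these counts.

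Relative to vehicle, HMMR gave a log2 fold change of -4.27 with E2 (SE 0.59), -3.17 with TNFα (SE 0.44) and -2.45 with E2+ TNFα (SE 0.42), the last of which was -3.24 without E2+ TNFα replicate 2. The values were -2.23, -1.01 and -0.70 with the trends removed, and -0.27, 0.69 and 1.07 with the housekeeping factor removed, where none passed. HMMR has 36.8% exon GC, less than all but 2.90% of the entries. Of 10 proliferation genes, 8 were lower in E2 than in vehicle, among them MKI67 at -1.20 and CENPF at -3.57, PLK1 was higher at 1.04, and CCNB1 gave -0.01, in a comparison where 81.8% of all genes tested were called. With the trends removed, 6 were lower and 2 higher, none met the study's thresholds, and the median moved from -1.75 to -0.31. Their part in the HMMR values was not tested. Between E2+ TNFα and TNFα the HMMR difference of 0.72 (SE 0.49) did not pass (adjusted p = 0.275 by edgeR), and it was -0.0687 without E2+ TNFα replicate 2 and 1.18 without replicate 3, where it passed (adjusted p = 0.0337 by edgeR).

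UGDH encodes UDP-glucose dehydrogenase, which supplies UDP-glucuronic acid. It lies at chr4:39498755-39527598 (hg38, - strand). Vehicle libraries had 33.0, 39.1 and 39.6 CPM. E2 libraries had 13.1, 10.5 and 17.7 CPM, TNFα libraries 12.9, 16.4 and 13.7 CPM and E2+ TNFα libraries 16.9, 20.2 and 14.4 CPM. The treated groups overlapped, and all 9 of their libraries lay below vehicle.

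Relative to vehicle, UGDH gave log2 fold changes of -1.42 (E2), -1.38 (TNFα) and -1.12 (E2+ TNFα), which turned to 0.11, 0.16 and 0.26 with the trends removed. Only the value for E2+ TNFα then passed the test, in the opposite direction (adjusted p = 0.0508 by edgeR). UGDH exons hold 40.9% GC, and a group of 1130 genes with like GC content had medians of -1.64, -1.63 and -1.43. E2+ TNFα relative to TNFα gave 0.26 (SE 0.19, adjusted p = 0.302 by edgeR).

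Across the list, E2+ TNFα relative to TNFα addressed the effect of E2 in cells that also received TNFα, and vehicle was not one of the groups compared. The vehicle libraries still entered the filter, the scaling and the estimate of spread of the shared fit. An adjusted p of at most 0.1 was reached by 5 of the 7 genes (HAS3, HYAL2 and HYAL3 higher, HAS2 and CD44 lower), against 45.3% of all genes tested. The thresholds of the study (log2 fold change of at least 1.5 in size, p below 0.05 and adjusted p of at most 0.1) were met by 2 of 7 (HAS2 and HAS3), against 5.56% of all genes tested. HAS2 and HAS3 entered the test only through groups in which they were high, so that nothing is read from either count. The calls of HYAL2, HYAL3 and CD44 were kept under every alternative scaling, filter, block and test, and with each library left out. Those of HAS2 and HAS3 were kept wherever the gene was tested. As these genes had to differ between groups, nothing is read from that. The median log2 fold change was 0.66 over the 7 genes and 0.04 over all genes tested.

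**Figure D2:**
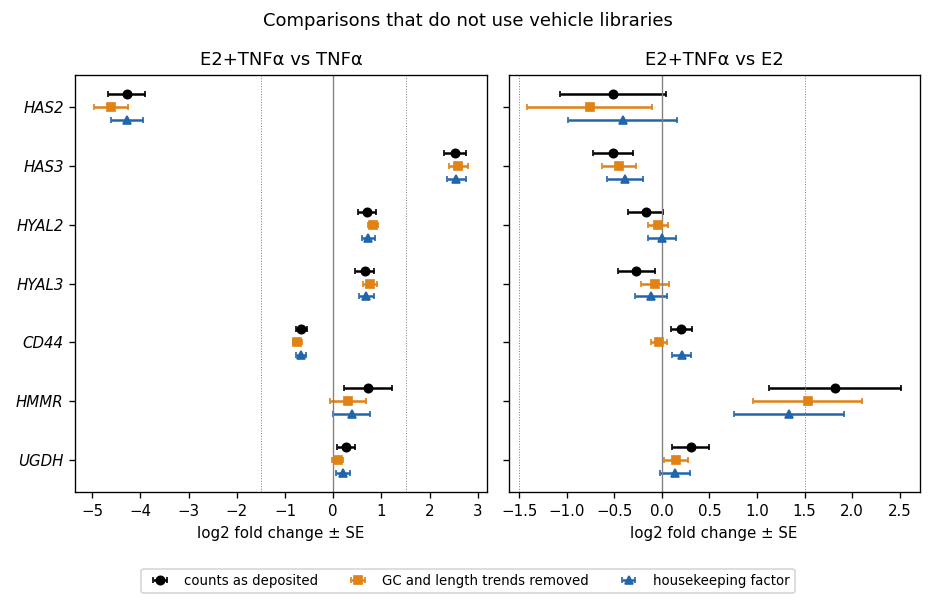
Log2 fold change ± SE of each gene in the comparisons between groups other than vehicle, for the counts as deposited, after removal of GC and length trends, and with a housekeeping factor removed (dotted lines, log2 fold change of 1.5 in size). On the left HAS2 lay at -4.60 to -4.27 and HAS3 at 2.53 to 2.60 in the 3 fits, and on the right no gene passed the test.

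E2+ TNFα relative to E2 addressed the response to TNFα in cells already given E2. None of the 7 genes was called by either rule with edgeR, against 0.407% of all genes tested for the study's thresholds and 6.00% for the adjusted p. DESeq2 also called 0, and 2 genes (HAS3 and HMMR) had an unadjusted p below 0.05 with edgeR, against 19.4% of all genes tested. HMMR gave 1.82 (SE 0.70, adjusted p = 0.168 by edgeR), which passed without E2+ TNFα replicate 3 (2.28) and was 1.03 without replicate 2. HAS2 gave -0.52 (SE 0.56), and 0.70 without E2 replicate 3, whose 13 counts exceeded those of the other E2 libraries. The SE of 0.56 for HAS2 leaves room for differences in either direction at this depth.

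The 3 comparisons with vehicle share the vehicle libraries, so that each is given for itself. In E2, 7 of 7 were called by adjusted p, against 81.8% of all genes tested, and 5 met the study's thresholds, against 30.5%. In TNFα, 7 of 7 were called by adjusted p against 81.9%, and 2 met the thresholds against 26.7%. In E2+ TNFα, 7 of 7 were called by adjusted p against 80.6%, and 4 met the thresholds against 25.1%. By adjusted p most genes of the table were called, and the counts past the thresholds include HAS2, HAS3 and HMMR, which had to differ between groups, so that nothing is read from either count. For the interaction of E2 and TNFα, which also uses vehicle, 6 of 7 were called by adjusted p against 76.6%, and 3 met the thresholds against 31.8%. HAS2 was lower and HAS3 higher in both groups with E2 than in vehicle, also with the trends or the housekeeping factor removed, at -3.68 to -7.22 for HAS2 and 1.00 to 2.20 for HAS3.

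**Figure D3:**
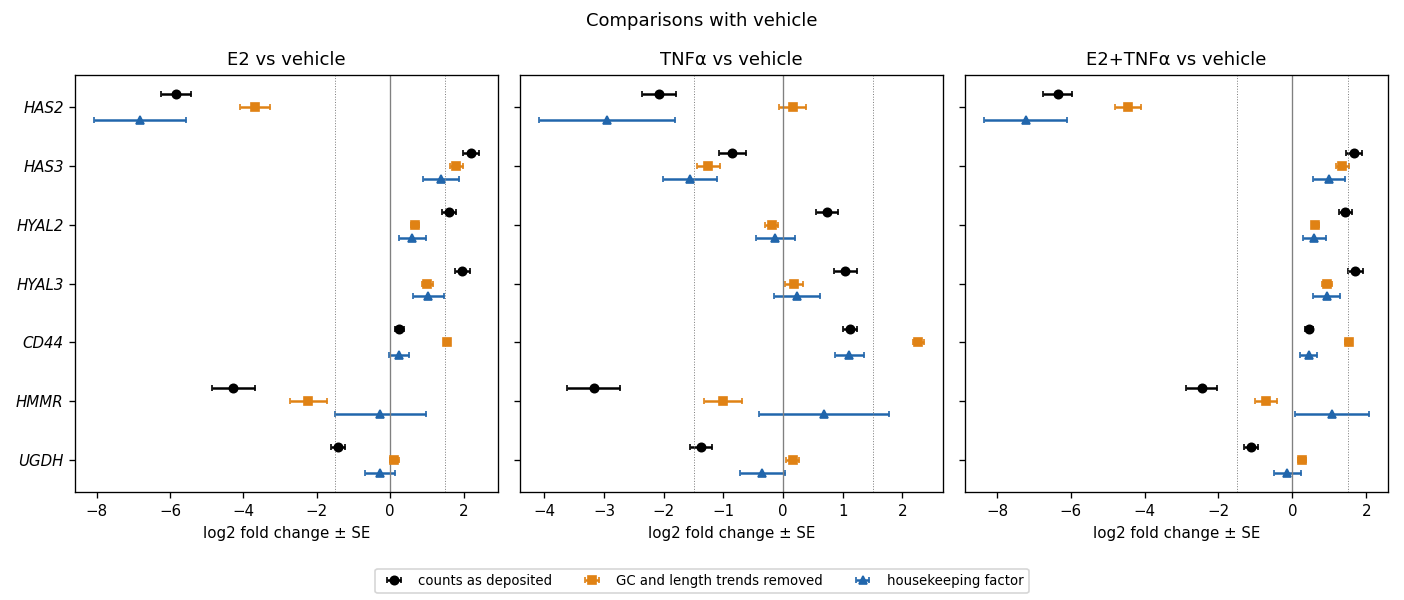
Log2 fold change ± SE of each gene relative to vehicle, for the same 3 fits. HAS2 lay between -7.22 and -3.68 in both panels with E2, whereas UGDH moved from -1.42, -1.38 and -1.12 to 0.11, 0.16 and 0.26 once GC and length trends were removed.

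**Figure D4:**
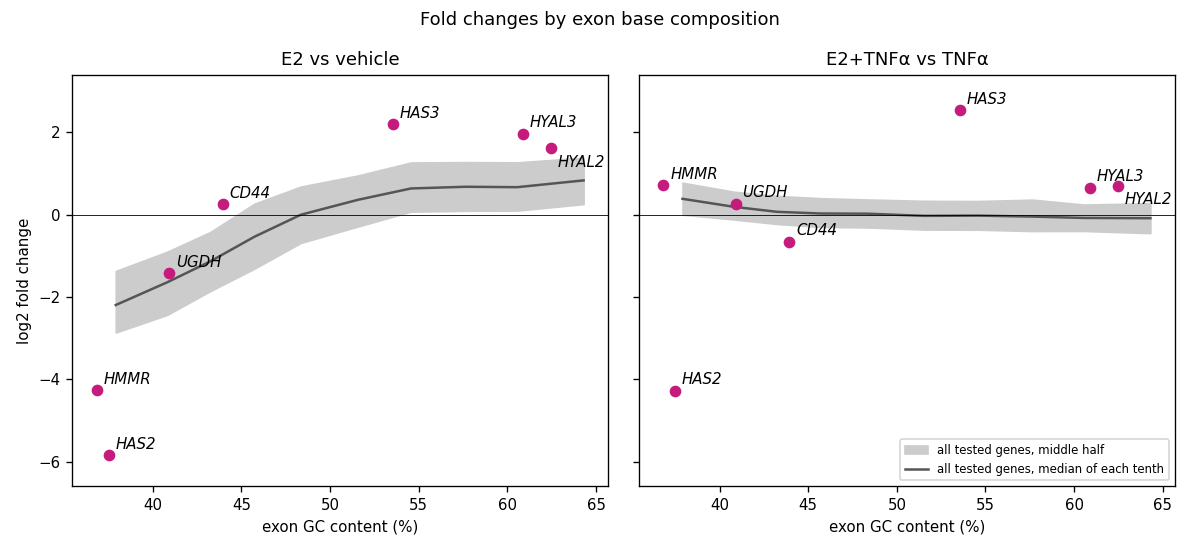
Log2 fold change of each gene against the GC content of its exons, over the median (line) and middle range between quartiles (band) of all tested genes, grouped by GC content. In E2 relative to vehicle the band rose with GC content (Spearman's rho 0.66 across genes) and held UGDH, whereas in E2+ TNFα relative to TNFα it was nearly flat (-0.21) and HAS2 and HAS3 lay far outside it.

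Other genes of hyaluronan metabolism were counted from lists chosen by function with earlier results known. In E2+ TNFα relative to TNFα both tested genes of the list of other synthases and hyaluronidases rose past the study's thresholds. Of all genes tested, 5.56% met these thresholds in either direction. CEMIP encodes a secreted protein needed for hyaluronan breakdown in fibroblasts, and its level was 77.2, 76.6 and 73.2 CPM in TNFα and 437, 402 and 494 CPM in E2+ TNFα (log2 fold change 2.55, SE 0.14). CEMIP2, a related cell-surface protein, was at 17.9, 23.7 and 14.9 CPM in TNFα and 99.96, 94.1 and 81.3 CPM in E2+ TNFα (2.28, SE 0.20). CEMIP was also higher in E2 than in vehicle (3.01, and 2.81 with the trends removed), whereas CEMIP2 in E2 gave -0.28 (adjusted p = 0.191 by edgeR), which turned to 0.44 with the trends removed and then passed (adjusted p = 0.0064 by edgeR). E2+ TNFα relative to vehicle likewise gave -0.12 for CEMIP2 and 0.46 with the trends removed (adjusted p = 0.0038 by edgeR). CEMIP was thus high in both groups with E2, and CEMIP2 was low in the TNFα libraries and similar in range in vehicle, E2 and E2+ TNFα, at 68.2 to 113 CPM.

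Of 15 genes of precursor supply and sugar salvage, 4 were higher and 6 lower in E2+ TNFα than in TNFα, and 5 did not pass, where 45.3% of all genes tested were called. The median log2 fold change of -0.16 compares with 0.04 over all genes tested. HK2, a hexokinase of the first step of glucose use, fell from 67.5, 65.6 and 80.2 CPM in TNFα to 20.3, 13.9 and 16.2 CPM in E2+ TNFα (-2.08, SE 0.19), the only gene of the list past the study's thresholds. These thresholds were met by 5.56% of all genes tested. GFPT2, an enzyme that opens the hexosamine route to UDP-N-acetylglucosamine, gave -0.85 (SE 0.14), and GFPT1, which catalyses the same step, gave 0.28 (adjusted p = 0.186 by edgeR). The salvage kinase NAGK rose by 0.94 (SE 0.11). GPI of this list, which fell by 0.36 on the log2 scale, is also 1 of the 20 housekeeping genes. The calls of UGP2, AMDHD2 and GPI were each lost on leaving out at least 1 library.

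Among lysosomal and export genes, the transporter ABCC5, implicated in hyaluronan export, rose by 1.04 (SE 0.14), and GUSB, a lysosomal glucuronidase, gave -0.30 (SE 0.12) and passed the test. HEXA, which encodes a subunit of a lysosomal hexosaminidase, gave 0.13 and did not pass. The GUSB call was lost without TNFα replicate 1, E2+ TNFα replicate 1 or E2+ TNFα replicate 2. Of 7 tested genes for other binding proteins and receptors, 3 rose and 2 fell, against the same 45.3% of all genes tested. TLR4 and TLR2, innate receptors that hyaluronan fragments have been reported to engage, gave 1.15 (SE 0.23) and 0.67 (SE 0.20), the latter not past the test without E2+ TNFα replicate 1. C1QBP, a mostly mitochondrial protein, and LAYN, a transmembrane receptor, gave -0.28 and -0.27, and the C1QBP call was lost in several alternatives. PTX3, a pentraxin that helps to crosslink hyaluronan, rose by 0.23 (SE 0.11), a call that was lost in several alternatives (adjusted p up to 0.252 by edgeR), and was the only gene of these lists past the study's thresholds between E2+ TNFα and E2, at 468, 421 and 438 against 94.6, 84.0 and 104 CPM (2.23). Between E2+ TNFα and E2, 0.407% of all genes tested met these thresholds.

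Of 10 tested partners, linkers and sheddases of CD44, 5 rose and 3 fell in E2+ TNFα relative to TNFα, where 45.3% of all genes tested were called. Ezrin (EZR, 0.81, SE 0.11) and radixin (RDX, 1.43, SE 0.19), which tie CD44 to the actin cortex, rose, whereas moesin (MSN) gave 0.09 and did not pass. SRGN, the proteoglycan serglycin that binds CD44, rose past the study's thresholds (1.56, SE 0.39), with a wide spread of 215 to 547 CPM in E2+ TNFα and 108 to 170 CPM in TNFα. It did not meet these thresholds with the trends removed (1.14) or with the housekeeping factor removed (1.37), although the adjusted p still passed in both. The sheddase ADAM10 rose by 0.88 (SE 0.17), and ADAM17, which can also release the CD44 ectodomain, fell by 0.72 on the log2 scale (SE 0.18). CD74, a CD44-associated chain of class II antigen presentation, fell from 150 to 168 CPM in TNFα to 65.1 to 95.1 CPM in E2+ TNFα (-1.06, SE 0.16). The calls of NF2 (-0.45) and ESRP2 (0.36), the latter a splicing factor that acts on CD44, were lost on leaving out several of the libraries.

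**Figure D5:**
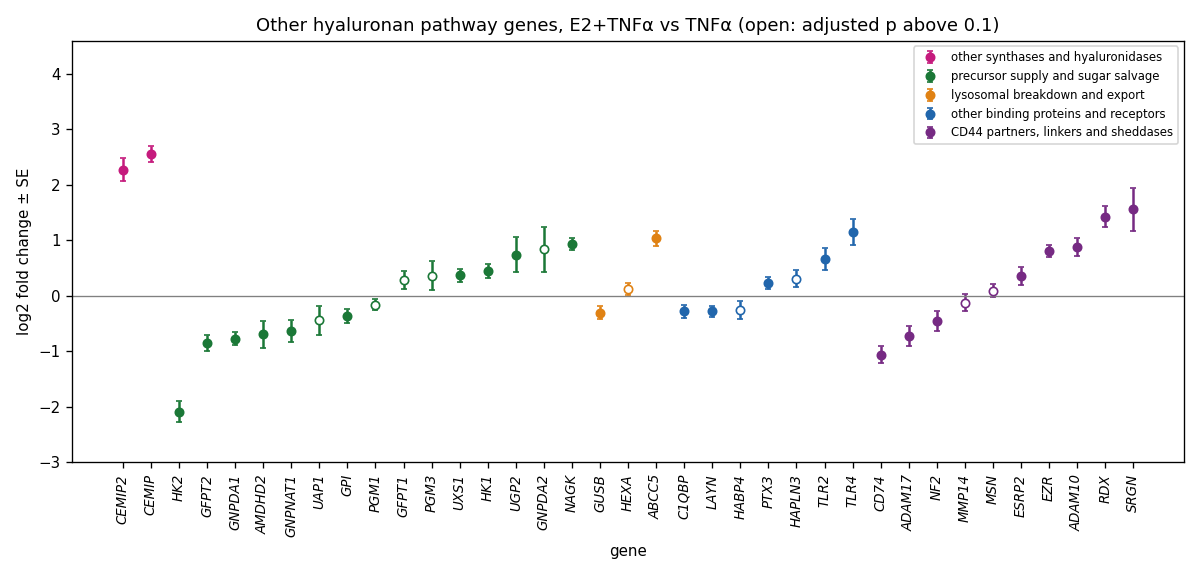
Log2 fold change ± SE of the other hyaluronan pathway genes in E2+ TNFα relative to TNFα, coloured by list and ordered by value within each (open points, adjusted p above 0.1). CEMIP and CEMIP2 lay at 2.55 and 2.28 and HK2 at -2.08, while the binding proteins lay between -0.28 and 1.15.

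The genes with the level pattern closest to HAS2, CD44 and HMMR over the 12 libraries were found by Pearson correlation of log2 CPM, as a description of libraries that share treatment and base composition. For HAS2 they were HEG1 (r = 0.998), DOP1B (0.990) and CLMN (0.989). For CD44 they were VDR (0.991), HBEGF (0.979) and SLC25A37 (0.976). For HMMR they were CXADR (0.985), KIZ (0.977) and WDR43 (0.977). Over the 9 libraries without vehicle HEG1 gave 0.997 with HAS2, and VDR gave 0.988 with CD44. For HMMR, CXADR gave 0.968, KIZ 0.911 and WDR43 0.913 over these libraries. Exon GC content was 49.5% for HEG1 against 37.5% for HAS2, 54.5% for VDR against 43.9% for CD44, and 36.9% for CXADR against 36.8% for HMMR. The part of base composition in these likenesses was not tested.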

How the data were processed

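RNA-seq libraries were prepared by the authors from total RNA with a stranded mRNA kit and sequenced as paired-end reads. The deposited values are raw counts per gene, as whole numbers without normalization, made per the submitters' processing notes with TopHat2 2.1.0, featureCounts and hg38. The strand setting of the counting is not given in the sources used here, and the RUVseq correction that the study describes is not in the values. Of 12567 entries, 46 were removed as exact repeats and 70 because another symbol held the same locus and counts. Symbols at more than 1 locus (14) were kept apart. The filter required 1 RPKM or more in 3 or more libraries, here scaled by library size alone, and left 11303 genes to be tested. The test used TMM scaling and the quasi-likelihood test of edgeR 4.0.16 in R 4.3.3, in one fit of 4 group means. SE was derived from the fold change and F. Thresholds were those of the study, but without its RUVseq correction, so that the shares of genes past them here are not those that the study obtained.

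The members, lists and tests were chosen with earlier results of these data known. Named were the members in the table, genes of functional lists that passed the filter, the 3 genes most like HAS2, CD44 and HMMR (prior count 2), and genes that overlap a member. Squared differences between replicates of a group were 10.2 to 71.1 times those of counting error alone (chi-square per degree of freedom), so no library was taken for a copy. Alternatives were size factors of DESeq2, library size only, no filter, a minimum of 10 counts per library, a replicate block, a factor from 20 housekeeping genes as in RUVg, DESeq2 1.42.0, the compared groups only, loess trends (span 0.3) with GC content and length removed through offsets of the edgeR fit, and each library left out. By adjusted p, 12 of the 20 housekeeping genes were higher and 4 lower in E2 than in vehicle, where 81.8% of all genes tested were called. In TNFα relative to vehicle 8 were higher and 4 lower, against 81.9%. The housekeeping factor may thus hold differences between the groups, which was not tested. One gene of the functional lists is not reported here. The steps were tested on simulated data. Depth was 7.65 to 39.9 M reads per library, and counts of 1 to 16, as for HAS2 and HMMR in several libraries, limit precision. Sequences came from RefSeq.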

Additional observations from a re-analysis of the deposited data

Results flagged for a closer look

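The difference between the TNFα effect with and without E2 reached an adjusted p of at most 0.1 for 6 of the 7 genes, by the interaction term of the edgeR fit, as it did for 76.6% of all genes tested. The count includes HMMR, which passed the filter on low values through vehicle alone, and HAS2, which passed through vehicle and TNFα, so that nothing is read from it. The interaction (log2 fold change of TNFα in the presence of E2 minus that in its absence) was 1.56 for HAS2 (adjusted p = 0.0342), -0.91 for HYAL2 (adjusted p = 0.0052), -1.31 for HYAL3 (adjusted p = 7.12e-04), -0.92 for CD44 (adjusted p = 1.15e-04), 4.99 for HMMR (adjusted p = 6.06e-05) and 1.68 for UGDH (adjusted p = 6.64e-05), each by edgeR. HAS3 gave 0.34 (adjusted p = 0.342 by edgeR). Those of HAS2, HMMR and UGDH met the study's thresholds, as did 31.8% of all genes tested. The interaction uses the vehicle libraries, and with GC and length trends removed only CD44 (-2.30), HMMR (2.54) and HAS3 (0.80) passed, while HAS2, HYAL2 and UGDH changed sign. For CD44 it was -0.90 with the housekeeping factor removed, and passed. The HAS2 interaction was 0.94 without E2 replicate 1 (adjusted p = 0.111 by edgeR), 1.35 without E2+ TNFα replicate 3 (adjusted p = 0.102 by edgeR) and 2.79 without E2 replicate 3. The cause of these differences was not tested.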

How the results depend on the processing

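The 5 calls between E2+ TNFα and TNFα kept their direction and side of the threshold in each alternative in which the gene was tested. For HAS2 and HAS3, which passed the filter only through groups in which they were high, nothing is read from this. At least 10 counts in every library removed HAS2 and HMMR, and the number past the study's thresholds went to 3 for E2, 0 for TNFα and 2 for E2+ TNFα relative to vehicle, 1 for E2+ TNFα relative to TNFα and 1 for the interaction, with 4 by adjusted p for E2. With the housekeeping factor removed, these were 1 for E2, 1 for E2+ TNFα and 0 for the interaction, and by adjusted p 3, 3 and 3 relative to vehicle and 1 for the interaction. Library size only gave 2 past the thresholds for E2+ TNFα relative to vehicle. With GC and length trends removed, 1 for TNFα and 2 for E2+ TNFα relative to vehicle met the thresholds, and 3 for TNFα and 3 for the interaction the adjusted p. The same with the replicate block gave 1, 2, 4 and 3. Leaving out 1 library gave 4 to 6 for E2, 0 to 1 for E2+ TNFα relative to E2 and 1 to 3 for the interaction (1 without E2 replicate 2) past the thresholds, and 6 to 7, 0 to 1 and 5 to 6 by adjusted p. The cause was not tested. Changes of sign relative to vehicle were CD44 in E2 with library size only (-0.10), UGDH with the trends removed in E2 (0.11, with the block 0.10), TNFα (0.16 and 0.17) and E2+ TNFα (0.26 and 0.25), HAS2 (0.16 and 0.16) and HYAL2 (-0.19 and -0.20) in TNFα, and, with the housekeeping factor, HYAL2 (-0.13) and HMMR (0.69) in TNFα and HMMR (1.07) in E2+ TNFα. Relative to E2 they were HYAL2 with the housekeeping factor (0.0015) and without E2 replicate 2 (0.0481, with -0.34 as the lowest on leaving out 1 library), CD44 with the trends removed (-0.0316, with the block -0.0375) and HAS2 without E2 replicate 3 (0.70, with -1.16 as the lowest). Relative to TNFα it was HMMR without E2+ TNFα replicate 2 (-0.0687, with 1.18 as the highest). For the interaction they were HYAL2 with the housekeeping factor (0.13), and with the trends removed HAS2 (-0.92, with the block -0.86), HYAL2 (0.15 and 0.16) and UGDH (-0.0130 and -0.0135). Samples with the same replicate number did not deviate together (correlation of -0.48 to 0.47, median -0.12, over 18 pairs), so the numbers were not used to pair the samples in the main fit. Such correlations cannot show whether samples of the same number were handled together. Over all genes tested, removal of the trends took the number past the study's thresholds from 3447 to 1568 for E2, from 3016 to 1180 for TNFα, from 2837 to 1227 for E2+ TNFα relative to vehicle and from 3593 to 1553 for the interaction, and the housekeeping factor took them to 1930, 1395, 1556 and 1686. Relative to E2 the 46 genes became 24 with at least 10 counts and 30 with the compared groups only. The replicate block alone left the count by adjusted p between E2+ TNFα and TNFα at 5 and changed the sign of no gene of the list.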
